A study of Caenorhabditis elegans with 4 samples.

Results

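The 10 genes described here encode the enzymes of propionate breakdown in the nematode Caenorhabditis elegans. They were taken by WormBase gene identifier from the 20535 genes listed for each library. Of these, 4 act in the later steps of the propionate shunt (ech-6, hach-1, hphd-1 and alh-8). The other 6 act in the route that depends on vitamin B12: the carboxylase subunit genes pcca-1 and pccb-1, the epimerase gene mce-1, the mutase gene mmcm-1, and the cofactor genes mmaa-1 and mmab-1.

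Whole young adult animals were profiled by RNA-seq. The mutant strain VL1080 carried mccc-1(ww4) on chromosome IV, and it also carried wwIs24[acdh-1p::GFP + unc-119(ed3)], an integrated reporter in which the promoter of the shunt gene acdh-1 drives green fluorescent protein. The control strain VL749 carried the same wwIs24[acdh-1p::GFP + unc-119(ed3)] with no mccc-1 allele listed, so both strains held the reporter. All animals had been synchronized by a 20 h arrest as L1 larvae. Each strain had 2 libraries, each from at least 200 animals fed Comamonas aquatica DA1877 on nematode growth medium at 20 °C; harvest was 70 h after hatching. Comamonas is a food rich in vitamin B12. The labels name the libraries as biological replicates without saying how cultures were kept apart, so part of the replicate spread behind the p-values may be technical. Levels are in FPKM, fragment numbers divided by the length of the transcript and by the size of the library, so that levels of different genes can be set side by side.

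Propionyl-CoA arises from the breakdown of valine, isoleucine, methionine, threonine and odd-chain fatty acids, and propionate is toxic when it accumulates. In the B12-dependent route, propionyl-CoA carboxylase, a biotin enzyme made of the pcca-1 and pccb-1 products, adds a carboxyl group, the epimerase MCE-1 turns over the product, and the mutase MMCM-1, which needs adenosylcobalamin, converts it to succinyl-CoA. When B12 is scarce, C. elegans uses a shunt that resembles beta-oxidation: ACDH-1 makes acrylyl-CoA, ECH-6 hydrates it, HACH-1 removes the CoA, HPHD-1 oxidizes 3-hydroxypropionate and ALH-8 converts malonic semialdehyde to acetyl-CoA. mccc-1, the gene mutated here, encodes part of methylcrotonyl-CoA carboxylase, which acts in leucine breakdown, also carries biotin and is related to propionyl-CoA carboxylase. The comparison asks what the mccc-1(ww4) mutation does to gene expression, here to the balance of both propionate routes on a B12-rich food.

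Of the 10 genes, ech-6 was the only one that passed the test, and it was higher in the mutant. None of the 6 genes of the B12-dependent route passed in either direction. Among all 13091 tested genes 8.36% were called, 1.06% as higher and 7.3% as lower in the mutant (limma on log2(FPKM + 1), Benjamini-Hochberg adjusted p under 0.05). All 10 genes were tested, and each had at least 15.9 FPKM in every library, far above the minimum for testing. The 4 later shunt genes had log2 fold changes above 0, with a median of 0.24, and 4 of the 6 B12-route genes had values below 0, with a median of -0.24. The median over all tested genes was 0.05, and 53.6% of them lay above the 0.02 of mmaa-1, so values above 0 were common. Of all tested genes 38.2% had a higher value than hach-1 and 44.4% a higher one than hphd-1. The medians and the counts of signs are descriptions with no test.

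ech-6 (WBGene00001155; chromosome III, 9751552 to 9752883, reverse strand, WBcel235 annotation) encodes the enoyl-CoA hydratase of the shunt, and enzymes of this kind also act in valine breakdown. It stood at 176 and 206 FPKM in the mutant libraries, against 111 and 109 FPKM in the control libraries. Both mutant libraries lay above both controls, and the controls were nearly equal. ech-6 averaged 191 ± 21.3 FPKM in the mutant and 109.9 ± 1.20 FPKM in the control (SD, n = 2 each), a ratio of 1.74. With limma, ech-6 had a log2 fold change of 0.79 (SE 0.13; adjusted p = 0.0173) and a 95% confidence interval of 0.48 to 1.10. Only 2.16% of tested genes had a more positive log2 fold change, a share that leaves out genes that fell by more. Without control replicate 2 the ech-6 fold change was 0.78, but the limma adjusted p was 0.0700. With no filter beyond a value above 0, where 4 genes in all were called, the limma adjusted p of ech-6 was 0.112.

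alh-8 (WBGene00000114; chromosome II, 11729055 to 11731198, forward strand) encodes the last enzyme of the shunt, a semialdehyde dehydrogenase, and was the most abundant of the 10 RNAs in every library. It stood at 339.6 and 434 FPKM in the mutant libraries, against 299 and 301 FPKM in the control libraries. The groups did not overlap for alh-8, but the mutant libraries differed from each other by a factor of 1.28. The log2 fold change was 0.35 (SE 0.15) with an interval of -0.01 to 0.72, and the limma adjusted p of 0.249 missed the threshold. The fold change of alh-8 was 0.53 without mutant replicate 1 and 0.18 without mutant replicate 2, and it was not called in either case. The annotated alh-8 gene overlaps F13D12.8, a gene on the other strand, by 34 bp. F13D12.8 was at 3.26 and 5.14 FPKM in the mutant and at 3.66 and 2.42 FPKM in the control, low beside alh-8.

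hach-1 (WBGene00017301; chromosome III, 5555450 to 5557318, forward strand) encodes the hydrolase that releases 3-hydroxypropionate from CoA. It stood at 66.1 and 55.8 FPKM in the mutant libraries, against 55.9 and 54.9 FPKM in the control libraries. Mutant replicate 2 lay between the controls, so the groups overlapped. The hach-1 log2 fold change was 0.13 with an interval of -0.20 to 0.46 (limma adjusted p = 0.654), an interval that does not reach a doubling or a halving.

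hphd-1 (WBGene00012608; chromosome II, 12994354 to 12996571, reverse strand) encodes the transhydrogenase that oxidizes 3-hydroxypropionate. It stood at 20.2 and 25.8 FPKM in the mutant libraries, against 15.9 and 28.8 FPKM in the control libraries. Both mutant libraries lay between the controls. The control libraries differed by a factor of 1.82 for hphd-1, the widest replicate gap among the 10 genes. Its log2 fold change was 0.09 with an interval of -0.60 to 0.77 (limma adjusted p = 0.902). It was -0.33 without control replicate 1 and 0.50 without control replicate 2, so even the sign of the hphd-1 difference rests on which control library is used. The partner step recycles the 2-hydroxyglutarate that HPHD-1 makes. Its gene dhgd-1, which encodes a 2-hydroxyglutarate dehydrogenase, stood at 46.2 and 48.7 FPKM in the mutant and at 27.5 and 43.8 FPKM in the control (log2 fold change 0.44, limma adjusted p = 0.319).

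**Figure D1:**
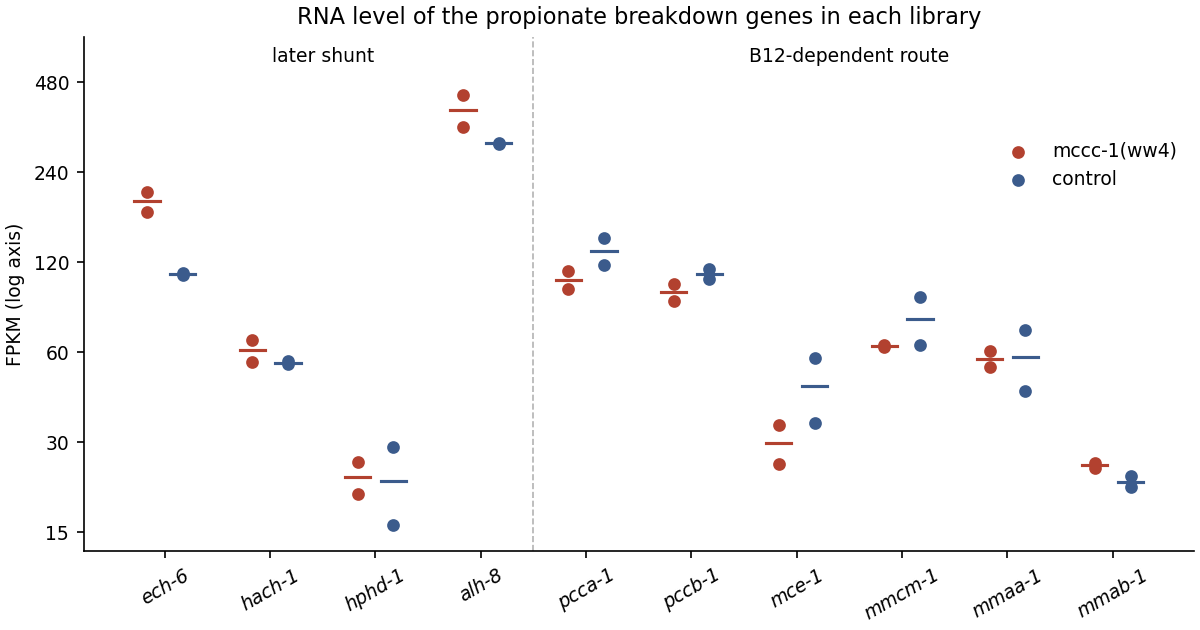
FPKM (log axis) of the 10 propionate breakdown genes, with 1 point per library, mccc-1(ww4) left of control, and a bar at the mean of the 2 libraries. ech-6 stands at 176 and 206 FPKM in the mutant libraries, above 111 and 109 FPKM in the controls, while the control libraries are far apart for hphd-1, mce-1, mmcm-1 and mmaa-1.

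In the B12-dependent route the values of the mutant libraries were mostly at or below those of the control, and no difference passed the test. pcca-1 (WBGene00017864; chromosome X, 7657542 to 7660986, reverse strand) encodes the alpha subunit of propionyl-CoA carboxylase, which carries biotin. It stood at 97.6 and 112 FPKM in the mutant libraries, against 117 and 144 FPKM in the control libraries. The groups did not overlap, and the log2 fold change of pcca-1 was -0.31 with an interval of -0.67 to 0.05 (limma adjusted p = 0.306).

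pccb-1 (WBGene00018701; chromosome X, 3089549 to 3092437, forward strand) encodes the beta subunit of the same carboxylase. It stood at 89.2 and 101.3 FPKM in the mutant libraries, against 105 and 113.9 FPKM in the control libraries. The groups did not overlap here either, and the log2 fold change of pccb-1 was -0.20 with an interval of -0.51 to 0.10 (limma adjusted p = 0.436). The level of pcca-1 was 1.09 and 1.11 times that of pccb-1 in the mutant libraries and 1.11 and 1.27 times in the control libraries, so both subunit RNAs stood at close levels throughout. pccb-1 overlaps wrt-2 on the other strand by 43 bp, and wrt-2 stayed at or below 0.42 FPKM in every library.

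mce-1 (WBGene00008415; chromosome I, 7582106 to 7583333, forward strand) encodes methylmalonyl-CoA epimerase. It stood at 34.4 and 25.3 FPKM in the mutant libraries, against 34.7 and 57.5 FPKM in the control libraries. Mutant replicate 1 and control replicate 1 were nearly equal, and control replicate 2 stood well above the other libraries. The log2 fold change of mce-1 was -0.58 (SE 0.26, limma adjusted p = 0.265), the lowest of the 10 genes, with an interval of -1.21 to 0.04. It was -0.94 without control replicate 1, where it passed the test as lower (limma adjusted p = 0.0321), and -0.23 without control replicate 2 (limma adjusted p = 0.806).

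mmcm-1 (WBGene00014202; chromosome III, 3903185 to 3907687, reverse strand) encodes methylmalonyl-CoA mutase, the step that uses adenosylcobalamin. It stood at 62.4 and 63.3 FPKM in the mutant libraries, against 63.3 and 91.9 FPKM in the control libraries. Both mutant libraries and control replicate 1 were nearly equal, and control replicate 2 alone was higher. The log2 fold change of mmcm-1 was -0.28 with an interval of -0.72 to 0.17 (limma adjusted p = 0.468), and it was -0.01 without control replicate 2.

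The remaining genes of the route serve the cofactor of the mutase. mmaa-1 (WBGene00020169; chromosome II, 7099583 to 7101165, reverse strand) is the worm counterpart of human MMAA, a GTPase that loads and protects the mutase. It stood at 60.4 and 53.4 FPKM in the mutant libraries, against 44.3 and 70.9 FPKM in the control libraries. Both mutant libraries lay between the controls, and the mmaa-1 log2 fold change of 0.02 (interval -0.52 to 0.55, limma adjusted p = 0.976) was -0.32 without control replicate 1 and 0.35 without control replicate 2. mmab-1 (WBGene00016144; chromosome III, 4920442 to 4922114, reverse strand) is the counterpart of human MMAB, the adenosyltransferase that makes adenosylcobalamin. It stood at 24.6 and 25.6 FPKM in the mutant libraries, against 23.1 and 21.3 FPKM in the control libraries. The groups did not overlap and the replicates lay close together, but the mmab-1 difference was small, with a log2 fold change of 0.17, an interval of -0.18 to 0.53 and a limma adjusted p of 0.576.

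For 7 of the 10 genes both mutant libraries lay on the same side of both controls, 3 with the mutant higher (ech-6, alh-8 and mmab-1) and 4 with the mutant lower (pcca-1, pccb-1, mce-1 and mmcm-1). Over all tested genes this was so for 52.1%, with 28.9% higher and 23.2% lower in the mutant, so the lack of overlap is common in these data. For mce-1 and mmcm-1 the nearest mutant and control libraries differed by less than 1 FPKM. The 95% intervals of hach-1 (0.87- to 1.37-fold), pccb-1 (0.70- to 1.08-fold) and mmab-1 (0.88- to 1.44-fold) were the narrowest among the genes that did not pass. Those of mce-1 (0.43- to 1.03-fold) and hphd-1 (0.66- to 1.70-fold) leave room for changes as large as that of ech-6, or nearly so. The same holds for alh-8 (0.99- to 1.65-fold), mmcm-1 (0.61- to 1.13-fold) and pcca-1 (0.63- to 1.04-fold). The interval of mmaa-1 was 0.70- to 1.47-fold. No interval shows that a gene was alike in both strains.

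**Figure D2:**
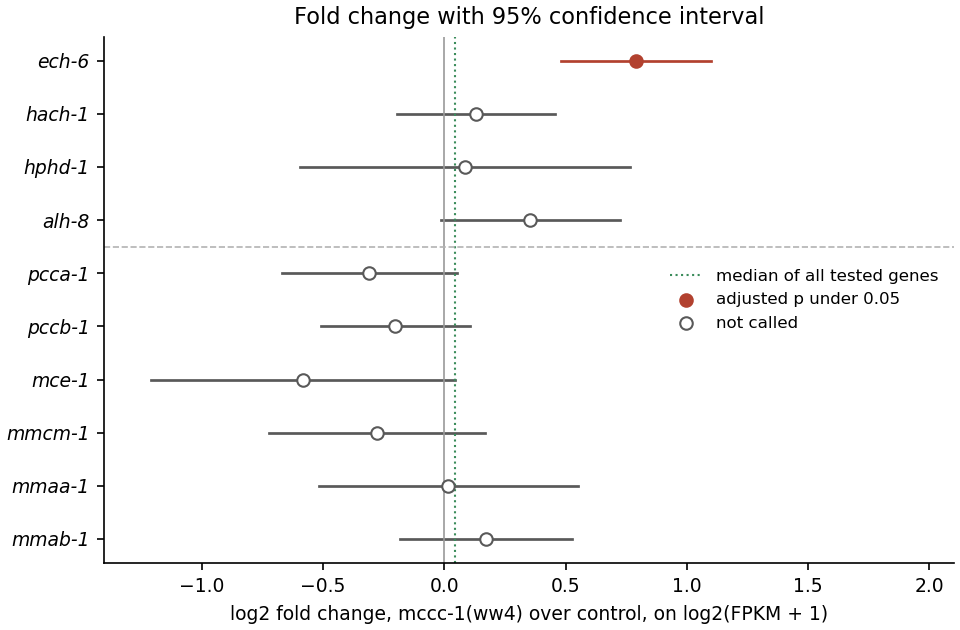
Log2 fold change of each gene, mccc-1(ww4) over control, on the log2(FPKM + 1) scale with its 95% confidence interval from limma, later shunt genes above the dashed line and B12-dependent route genes below it. The interval of ech-6 (0.48 to 1.10) lies above 0, and the intervals of the other 9 genes include 0.

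Set side by side as routes, the summed RNA of the shunt genes was higher in the mutant than in the control. Most of that came from ech-6 and from alh-8, which was not called. hach-1 (mean 61.0 FPKM in the mutant and 55.4 FPKM in the control) and hphd-1 (23.0 and 22.3 FPKM) overlapped between the strains. Summed FPKM of the 4 later shunt genes was 602 and 722 in the mutant libraries, against 481 and 494 in the control libraries. Summed FPKM of the 6 B12-route genes was 369 and 381 in the mutant libraries, against 388 and 499.7 in the control libraries. The shunt sum was therefore 1.63 and 1.89 times the B12-route sum in the mutant libraries, and 1.24 and 0.988 times in the control libraries.

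The groups did not overlap in any of these 3 quantities, but this was also so for 52.1% of all tested genes taken singly. The mean ratio of the sums was 1.76 ± 0.183 in the mutant and 1.11 ± 0.179 in the control (SD, n = 2 each). With ech-6 left out, the ratio was 1.16 and 1.35 in the mutant and 0.955 and 0.770 in the control. The higher ratio thus did not come from ech-6 alone, but alh-8, which was not called, supplied most of the remaining shunt sum. In the mutant libraries alh-8 gave 339.6 and 434 FPKM of remaining sums of 426 and 515 FPKM. In the control libraries it gave 299 and 301 FPKM of 370 and 385 FPKM. ech-6 made up 29.3% and 28.6% of the shunt sum in the mutant and 23.0% and 22.1% in the control. The B12-route sum of control replicate 1 was close to those of the mutant libraries, and the lower mutant average of that sum came mainly from the high value of control replicate 2. Since the genes were chosen with earlier results of these data known, no p-value is given for the sums.

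**Figure D3:**
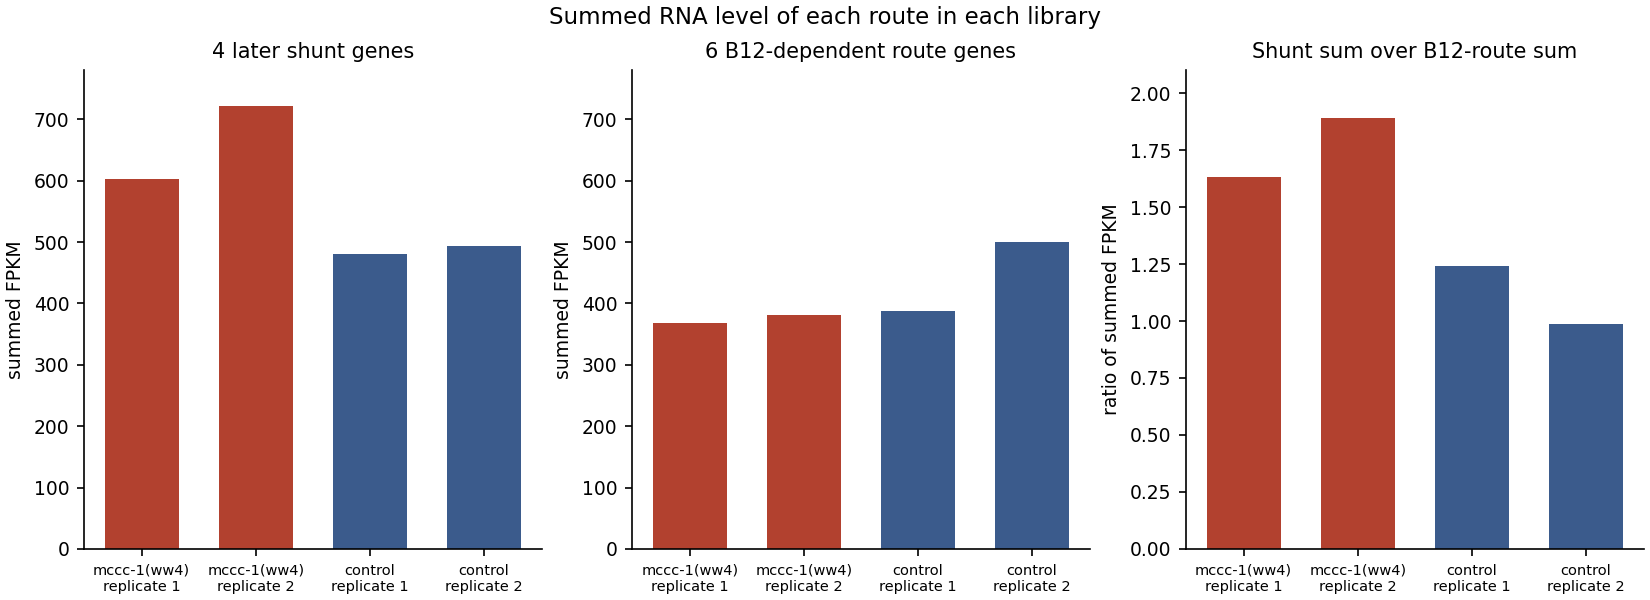
Summed FPKM of the 4 later shunt genes (left) and of the 6 B12-dependent route genes (middle), and the ratio of the sums (right), with 1 bar per library and the mccc-1(ww4) libraries left of the control libraries. The ratio is 1.63 and 1.89 in the mutant libraries and 1.24 and 0.988 in the control libraries.

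The order of levels changed at 1 place near the top. In the mutant, alh-8 was followed by ech-6 (191 ± 21.3 FPKM), pcca-1 (105 ± 10.5 FPKM) and pccb-1 (95.2 ± 8.58 FPKM), and the libraries of ech-6 did not overlap those of pcca-1. In the control, alh-8 was followed by pcca-1 (131 ± 19.2 FPKM), ech-6 (109.9 ± 1.20 FPKM) and pccb-1 (109.5 ± 6.17 FPKM), where the libraries of ech-6 and pccb-1 overlapped. mmcm-1, hach-1 and mmaa-1 came next below pccb-1 in both strains, with means of 56.9 to 62.8 FPKM in the mutant and 55.4 to 77.6 FPKM in the control. Neighbours in this order overlapped, while mmcm-1 did not overlap mmaa-1 in the mutant or hach-1 in the control. mce-1, mmab-1 and hphd-1 had the lowest means in both strains, and mmab-1 and hphd-1 overlapped in each; in the control the libraries of mce-1 also overlapped those of hach-1. Among all tested genes, the mean levels of the 10 genes ranged from the 60.1 percentile (hphd-1) to the 97.5 percentile (alh-8).

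acdh-1 of the shunt entry step, and its relative acdh-2 listed with it, had fold changes well above those of the later steps. This difference was not tested, nor was whether acdh-2 acts in the shunt. acdh-1, which encodes an acyl-CoA dehydrogenase and lends its promoter to the reporter of both strains, reached 8.27 and 8.79 FPKM in the mutant and at 0.07 and 0.36 FPKM in the control. Its relative acdh-2 was at 397 and 296 FPKM in the mutant and at 0.41 and 2.50 FPKM in the control, and both rose (limma adjusted p = 0.00591 and 0.00147). These genes resemble each other, so the quantification could have split shared reads between them, and the control values rest on few fragments.

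Of the 8 genes of valine and isoleucine breakdown that were listed, 2 rose, none fell and 6 did not pass (median log2 fold change 0.23). Over all tested genes 1.06% were called higher in the mutant. Valine breakdown gives propionyl-CoA and uses enzymes of the ECH-6, HACH-1 and ALH-8 kind. acdh-9, an acyl-CoA dehydrogenase gene, stood at 217 and 259.6 FPKM in the mutant and at 61.3 and 59.7 FPKM in the control (log2 fold change 1.96, limma adjusted p = 0.00395). B0250.5, predicted to encode 3-hydroxyisobutyrate dehydrogenase of valine breakdown, stood at 112 and 134 FPKM in the mutant and at 59.6 and 71.6 FPKM in the control (log2 fold change 0.90, SE 0.15, limma adjusted p = 0.0187). Both mutant libraries were above both controls for each of these genes, as they were for 28.9% of all tested genes. bcat-1, the branched-chain aminotransferase gene, was at 165.2 and 165.5 FPKM in the mutant and at 114.4 and 122 FPKM in the control, and narrowly missed the threshold (limma adjusted p = 0.0561).

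None of the 5 genes of B12 handling and use passed the test (median log2 fold change 0.01), and none had libraries that did not overlap. metr-1, the B12-dependent methionine synthase gene, stood at 45.9 FPKM in both mutant libraries and at 49.2 and 42.3 FPKM in the control. cblc-1, the counterpart of the human gene MMACHC that processes incoming B12, stood at 24.6 and 22.5 FPKM in the mutant and at 21.5 and 28.4 FPKM in the control. The log2 fold changes of these 5 genes ran from -0.28 (mrp-5, a transporter gene) to 0.08 (pmp-5, also a transporter gene).

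Of the 5 regulators none passed (median 0.28). nhr-68 and nhr-114 encode nuclear receptors of the responses to low B12. nhr-68 stood at 23.7 and 13.5 FPKM in the mutant and at 7.96 and 13.4 FPKM in the control (limma adjusted p = 0.259), so mutant replicate 2 was level with control replicate 2. nhr-114 stood at 15.9 and 16.5 FPKM in the mutant and at 12.3 and 8.73 FPKM in the control (limma adjusted p = 0.165), with both mutant libraries above both controls. nhr-10, which acts with nhr-68 on acdh-1, stood at 18.2 and 11.3 FPKM in the mutant and at 17.6 and 18.8 FPKM in the control (limma adjusted p = 0.519).

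Of the 5 biotin carboxylase and biotin ligase genes, 4 matched the files and were tested, and none passed (median 0.06). mccc-1 itself stood at 100.4 and 100.3 FPKM in the mutant and at 104 and 105 FPKM in the control (log2 fold change -0.06, limma adjusted p = 0.821). The labels do not describe the lesion of ww4, so this RNA level does not check the genotype. The 3 genes of succinyl-CoA use in the citric acid cycle (suca-1, sucg-1 and sucl-2) did not pass either (log2 fold changes of 0.16 to 0.24).

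**Figure D4:**
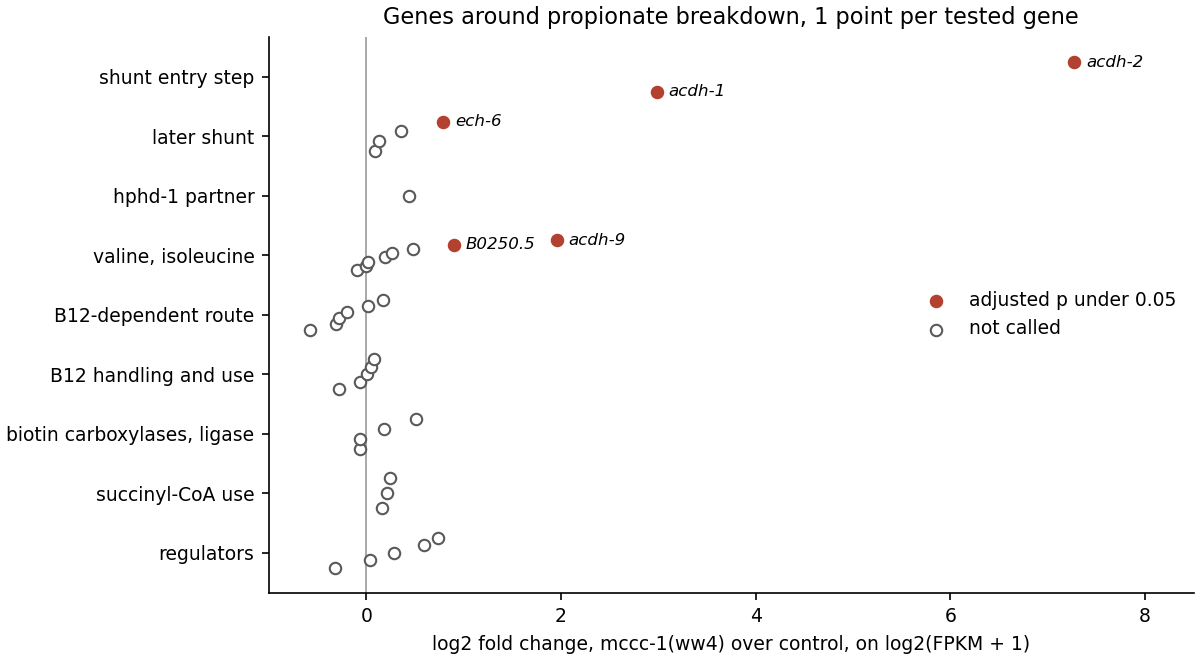
Log2 fold change, mccc-1(ww4) over control, on the log2(FPKM + 1) scale for the genes around propionate breakdown, 1 point per tested gene, filled and named where the limma adjusted p was under 0.05. The called genes are acdh-1 and its relative acdh-2 in the shunt entry row, ech-6, and acdh-9 and B0250.5 of the valine and isoleucine genes. The points of the B12-dependent route and of B12 handling lie between -0.58 and 0.17.

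Within its own gene family, ech-6 was the only one of 10 tested ech genes that passed. It was the most abundant of them in both mutant libraries, while ech-1.2 was higher in both control libraries. Of the ech genes 9 had log2 fold changes above 0 and 1 below (median 0.18). That of ech-9 (0.83, SE 0.69, limma adjusted p = 0.562) was larger than that of ech-6 but was not called. ech-7, named after its values were seen, had 47.8 and 47.9 FPKM in the mutant and 40.7 and 30.1 FPKM in the control (log2 fold change 0.44, limma adjusted p = 0.199). Among the 12 tested alh genes alh-8 was the most abundant in every library. alh-13 was the only one called, and it fell to 3.56 and 3.13 FPKM in the mutant, against 8.34 and 9.74 FPKM in the control (limma adjusted p = 0.0263).

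The genes whose pattern over the 4 libraries lay closest to that of ech-6 were sought among 7490 other tested genes with a mean of at least 10 FPKM, by Euclidean distance of centred log2(FPKM + 1) values. They were ivd-1 (distance 0.0937), Y66A7A.7 (0.107), acaa-2 (0.107), tag-229 (0.116) and F34D10.4 (0.120). ivd-1, the isovaleryl-CoA dehydrogenase gene of leucine breakdown, stood at 151 and 162 FPKM in the mutant and at 88.5 and 87.7 FPKM in the control. acaa-2, a thiolase gene, stood at 173 and 184 FPKM in the mutant and at 104 and 98.3 FPKM in the control. The pattern closest to that of mce-1 was shown by stdh-1 (distance 0.0492), at 15.5 and 11.1 FPKM in the mutant and 14.9 and 25.7 FPKM in the control, followed by C06B3.6, F18C5.10, spp-24 and ugt-49. All of these 5 were highest in control replicate 2, as mce-1 was. With 4 libraries, likeness is a description and carries no p-value.

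Among markers that are not part of these routes, control replicate 2 also stood apart in the summed hypoxia genes and the summed intestinal genes. In the sperm, germline and cuticle sums it lay near another library. The summed FPKM of 4 hypoxia response genes (cysl-2, nhr-57, F22B5.4 and phy-2) was 34.0 and 37.6 in the mutant, against 83.1 and 234.6 in control replicates 1 and 2. Of these genes 3 were called lower in the mutant, phy-2 was not called and none was at 0. Both mutant libraries lay below both controls for all 4. Over all tested genes 7.3% were called lower, and 23.2% had both mutant libraries below both controls. The sum of 5 intestinal genes (elt-2, ges-1, ifb-2, act-5 and pept-1) was 574 and 566 in the mutant and 584 and 351 in the control; none was at 0 and none was called. The low sum of control replicate 2 came mostly from act-5, at 412 and 415 FPKM in the mutant and at 423 and 229 FPKM in the control. Only elt-2 had libraries that did not overlap (limma adjusted p = 0.0967). It was at 9.55 and 11.1 FPKM in the mutant and at 6.38 and 3.94 FPKM in the control. Of the 5 intestinal fold changes 4 were above 0 and 1 was below. The sum of 34 sperm genes was 2864 and 4377 in the mutant and 11198 and 10746 in the control, and 31 of the 32 tested sperm genes were called lower in the mutant, with 1 sperm gene at 0 in each mutant library. The 6 germline and oocyte markers summed to 1307 and 1282 in the mutant and to 1197 and 1160.5 in the control, and none was called or at 0. The 5 cuticle and hypodermis markers summed to 2894 and 3216 in the mutant and to 3485 and 2841 in the control, almost all of it col-19. col-12 was called lower, dpy-7, rol-6 and bli-1 were under 1 FPKM in every library, and rol-6 was at 0 in mutant replicate 1 and control replicate 2. The part of these markers in the propionate results was not tested. ech-6 also passed after rescaling without the major sperm protein genes (log2 fold change 0.83, limma adjusted p = 0.00810). That rescaling only divided all genes of a library by 1 factor (0.969 to 1.017), so it does not test the make-up of cells. In RNA of whole animals, fewer cells of a type and less RNA per cell cannot be told apart.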

How the data were processed

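Total RNA of whole animals was sequenced, with 2 libraries per strain. The deposited values are FPKM per gene, per the file headers, with 1 file per library and no pooling. The submitters' processing notes name Bowtie2 and RSEM; none of the sources used here gives their versions, the build, the gene models or the strandedness of the kit. RSEM divides reads that match several genes by a model, which makes values of close paralogs uncertain. FPKM sums were 741399 and 770579 in the mutant and 786436 and 780720 in the control libraries.

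Testing used limma 3.58.1 (R 4.3.3) on log2(FPKM + 1) for every gene that reached 1 FPKM in 2 or more libraries (group only, mean-variance trend, Benjamini-Hochberg over all 13091 genes). A fold change on that scale understates the change of low genes. Intervals and SE come from this fit, SDs from FPKM. The script was tested on simulated data. Depth is not given; the spacing of low values in genes of about 1 kb gave 0.0846 to 0.0878 FPKM per fragment, so the lowest value of hphd-1 rests on roughly 310 fragments (counting error 5.69%). Gene positions are those of the WBcel235 annotation (Ensembl release 115), matched by identifier.

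The genes, lists and low-value filter were chosen with earlier results of these data known. Other genes named come from lists written down by role. Called ones were named first, but the rest were not taken strictly by level, and some were named after their values were seen. Among those left out, though higher than some named ones, were mdt-15 (mean 55.5 FPKM in the mutant and 53.9 FPKM in the control) and dld-1 (171 and 168 FPKM). pyc-1 (115 and 122 FPKM) and mtrr-1 (43.1 and 41.7 FPKM) were also left out. None of these genes was called. mccc-2 and 1 sperm gene did not match the files.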

Additional observations from a re-analysis of the deposited data

How the results depend on the processing

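Alternatives were another pseudocount (0.1), other filters, other scalings, the replicate number as a block and each library left out; rescaling without the major sperm protein genes was added after the data were seen. When a library is left out, its lone partner is assumed to vary like the other strain. ech-6 kept its direction in all 11 alternatives (log2 fold change 0.68 to 0.90) and its call in 9; it was lost with no filter beyond a value above 0 (limma adjusted p = 0.112), which tests many more low genes, and without control replicate 2 (0.0700). In those settings 0 later shunt genes were called. With no filter 18934 genes were tested and 4 in all were called, 3 higher and 1 lower. The reason for so few calls in that setting was not tested. The total was 726 (603 lower) after quantile normalization, and 393 to 1324 with a library left out (37 to 244 higher, 356 to 1080 lower). With the replicate block it was 1803, with 352 higher and 1451 lower, and the block changed no call among the 10 genes. Deviations of same-numbered libraries from their strain means had r = 0.18 across genes. With 2 libraries per strain the crossed pairs give -0.18 by construction, so this cannot show that same-numbered libraries belong together. The labels do not say that a number marks a batch.

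B12-route genes called were 0 in the other alternatives and 1, mce-1, without control replicate 1 (log2 fold change -0.94). With a library left out, that count ran from 0 to 1 and that of the shunt from 0 to 1. With a library left out, the shunt median ran from 0.22 to 0.43 and the B12-route median from -0.39 to -0.08; median-of-ratios scaling gave a shunt median of 0.19. Signs turned for mmaa-1 after median-of-ratios scaling (-0.037), quantile normalization (-0.064) and without control replicate 1 (-0.32) or mutant replicate 1 (-0.07), and for hphd-1 without control replicate 1 (-0.33) or mutant replicate 2 (-0.08). With a library left out, mmaa-1 ran from -0.32 to 0.35 and hphd-1 from -0.33 to 0.50. The cause was not tested. Estimated counting error at the lowest value was largest for mmab-1, mce-1 and hphd-1 (6.63%, 6.48% and 5.69%). These are rough estimates from the spacing of low values. The hphd-1 controls differed by a factor of 1.82, and the part of counting error in that gap was not tested.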
